A study of Mus musculus with 12 samples.

Results

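The Myc gene and the stretch of chromosome 15 beyond it were examined by chromatin accessibility in mouse blood stem and progenitor cells with and without Phf6. The members are the regions of the deposited count table on chromosome 15 with a start between 61.9 and 63.9 Mb (GRCm38), whatever their counts: 136 of 188262 regions. Of these, 132 passed the filter on low counts and could be tested, and 4 did not. A region is called here by the distance of its centre from the Myc start, so that the 1663 kb region lies 1663 kb beyond it.

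Myc is a transcription factor of growth and proliferation that binds DNA as a partner of Max. In blood its transcription depends on enhancers very far downstream, in a gene desert behind the long noncoding RNA gene Pvt1, and their loss impairs blood formation. Pvt1 itself holds elements that act on Myc, and a separate Notch-responsive enhancer in the same desert drives Myc in T cell leukaemia. ATAC-seq, in which the Tn5 transposase cuts and tags open DNA, reads whether such elements are open, not whether they act on the gene.

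The series holds 12 ATAC-seq libraries from male mice in 4 groups of 3: long-term haematopoietic stem cells (LT-HSC) and the cells labelled MPP, taken here as multipotent progenitors, each as wild type (WT) and knockout (KO). Phf6 is an X-linked chromatin protein gene that is mutated in T cell and myeloid leukaemia. WT is Phf6f/Y Rosa26+/+, with a floxed allele and no Cre. KO is Phf6-/Y Rosa26+/Cre-ERT2, so every KO library and no WT library carries the tamoxifen-inducible Cre, and loss of Phf6 cannot be told apart from the presence of Cre. Per the labels, LT-HSC were sorted 8 weeks after tamoxifen, 20000 cells a library, from individual mice; the same text stands under the MPP libraries. The sources used here do not say whether LT-HSC and MPP libraries of the same number come from 1 mouse.

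Libraries held 22665988 to 48547234 counts over all regions, and the members held 9704 to 19991 of them, with a median of 21.5 to 52 counts a member. Log2 counts of replicates correlated at r = 0.971 to 0.982 across regions, which are not independent replicates. Markers by gene-end accessibility followed the population labels in part: from LT-HSC to MPP in WT, 5 of 5 MPP markers were called higher, and of 8 LT-HSC markers 5 were called lower and 1, Hlf, higher. Vwf, an LT-HSC marker, went from 8.88 ± 0.179 to 0.626 ± 0.307 CPM (CPM, TMM-scaled counts as a rate per library; mean ± SD, n = 3). Of the mature myeloid markers 5 of 6 were called higher in MPP. Among all gene-end regions 32.6% were called higher in WT MPP than in WT LT-HSC, and 35.5% lower. Each marker was read at its strongest gene-end region, while these shares include weak ones. The summed T cell markers lay between 19.5 and 23.2 CPM and the summed B cell markers between 26.4 and 33.1 CPM in every library.

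The members fall into 8 stretches. Upstream of Myc lie 3 regions, at Myc (the gene and its 5 kb flanks) 5, on the near side and in Pvt1 34, and in the desert up to 1.2 Mb 39. The T cell enhancer window, from 1.2 to 1.3 Mb, holds 2, the desert behind it 7, the blood enhancer window from 1.6 to 1.8 Mb 34, and the far end 12. Only 3 members lie within 1 kb of an end of a protein-coding gene, all at Myc, and 49 overlap any annotated gene. Member length ran from 402 to 1283 bp with a median of 454 bp.

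Most of the accessibility lay at Myc, in Pvt1 and in the blood enhancer window, which held 21.8%, 19.4% (with the near side) and 40.7% of the members' summed CPM in WT LT-HSC. Mean CPM per region ran from 0.0565 to 60.6 with a median of 0.988, and the 9 members above 10 CPM held 51.4% of the members' summed CPM. Per length, the strongest member was not the promoter. The 1663 kb region in the blood enhancer window (chr15:63648118-63648580, intergenic, 15582 bp from the predicted gene Gm5473) had 130 CPM per kb over the 12 libraries. The region over the Myc start (chr15:61984985-61985702, the 0 kb region, overlapping the gene's first bases) had 84.3 CPM per kb. They ranked 1467th and 1437th of all regions by CPM, with 60.2 and 60.6 CPM. The next members per length were the -2 kb region with 34.2, the 2 kb region in the Myc body with 30.1 and the 1719 kb region with 28.3 CPM per kb.

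**Figure D1:**
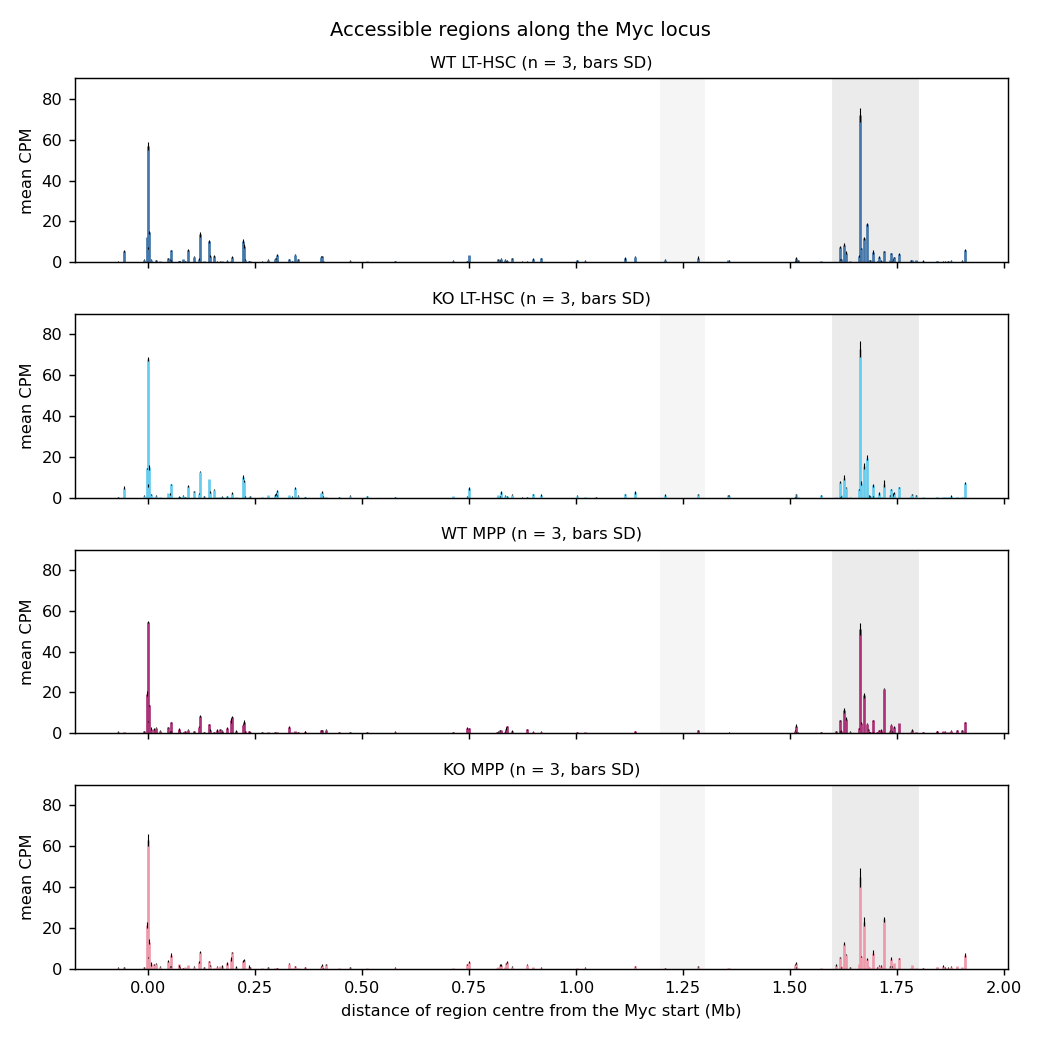
Mean CPM of each of the 136 regions (vertical axis; black bars, SD of 3 libraries) against its distance from the Myc start in Mb, with a panel for each group and the T cell (1.2 to 1.3 Mb) and blood (1.6 to 1.8 Mb) enhancer windows shaded. The tall lines at the Myc start and at 1663 kb stand out in each panel, and a line at 1719 kb is tall in the MPP panels.

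The blood enhancer window held about as much of the locus in every group, while its makeup differed. Its 34 regions held 40.7% of the members' summed CPM in WT LT-HSC, 41.4% in KO LT-HSC, 41.2% in WT MPP and 40.9% in KO MPP. Their sum was 172 ± 8.60 CPM in WT LT-HSC and 166 ± 7.20 in WT MPP (SD, n = 3), less apart than the replicates spread. With total-count scaling these were 177 ± 8.05 and 167 ± 5.14, further apart than either SD. In KO the sums were 184 ± 10.1 in LT-HSC and 170 ± 4.99 in MPP. These too were further apart than either SD, though KO MPP 2 lay above KO LT-HSC 3. The 1663 kb region alone held 17.1% of the locus in WT LT-HSC and 12.7% in WT MPP. The first desert had 48.4 ± 3.42 CPM in WT LT-HSC and 38.1 ± 1.11 in WT MPP, and these libraries do not overlap.

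The step from LT-HSC to MPP was measured in WT first. Of 132 members 56 were called higher in MPP and 53 lower (edgeR quasi-likelihood test, Benjamini-Hochberg adjusted over all regions). Across all tested regions 69.8% were called, 34.6% higher and 35.2% lower. Members changed by at least 2-fold numbered 35 higher and 29 lower, against 17.9% and 18.6% of all regions. The median log2 fold change was -0.05 over the members and 0.01 over all regions. In KO, 53 members were called higher and 48 lower, beside 33.3% and 34.4% of all regions (67.7% called). In both genotypes 51 members were called higher and 46 lower, and 0 were called in opposite directions. The share called alike in both genotypes over all regions was not determined, so these counts do not set the locus apart.

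**Figure D2:**
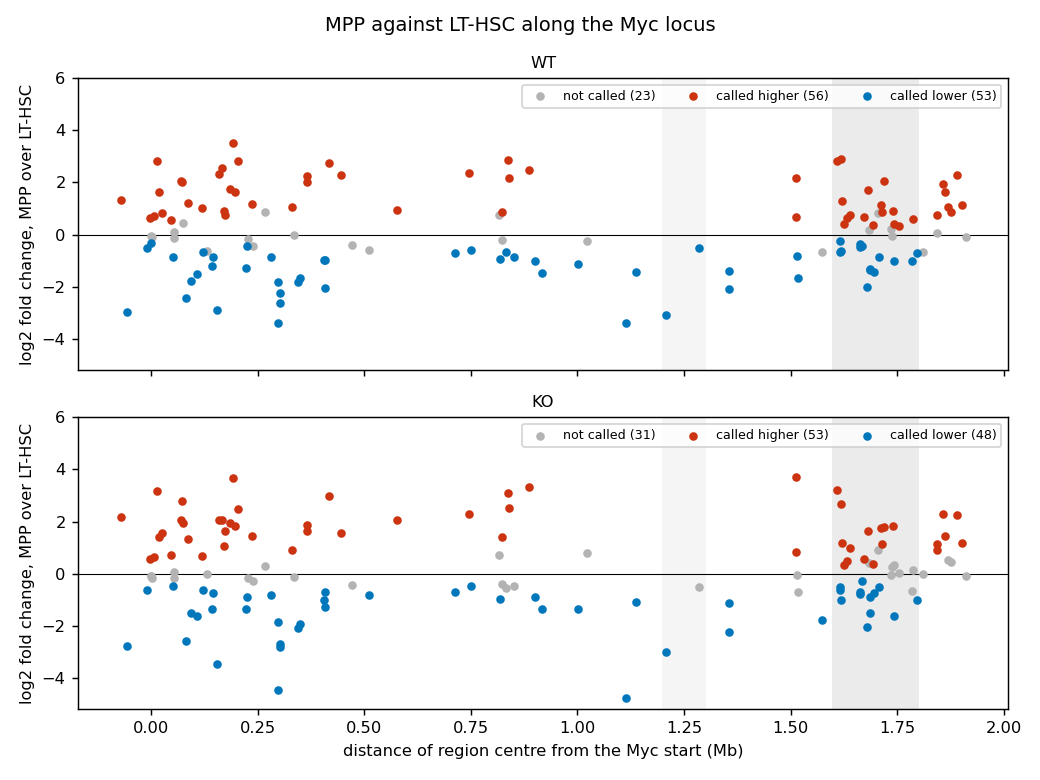
Log2 fold change of MPP over LT-HSC for the 132 tested regions (vertical axis) against distance from the Myc start in Mb, WT above and KO below; red points were called higher in MPP, blue lower and grey not called, and the shaded bands are the T cell and blood enhancer windows. Red and blue points lie side by side along the locus, and the far end beyond 1.8 Mb holds no blue point.

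The region over the Myc start was not called in the step. It had 57.0, 58.9 and 54.6 CPM in WT LT-HSC compared with 54.3, 55.3 and 54.3 in WT MPP. These ranges overlap, and the log2 fold change was -0.06 ± 0.06 (SE; edgeR adjusted p = 0.352). In KO it was -0.10 ± 0.06 (edgeR adjusted p = 0.0947), and with a loess offset in place of TMM scaling both were called lower. The other regions at Myc moved differently. The -2 kb region (chr15:61983246-61983740, 1601 bp before the gene) had 12.6, 12.4 and 12.2 CPM in WT LT-HSC, against 19.4, 20.6 and 18.3 in WT MPP. All 3 MPP libraries were above all LT-HSC libraries, with a log2 fold change of 0.65 ± 0.08 (edgeR adjusted p = 9.62e-09), and in KO it was 0.58 ± 0.08 (edgeR adjusted p = 1.28e-07). Its neighbour at -1 kb (chr15:61984255-61984692), 0.514 kb further on, was called lower in WT, from 7.03 ± 0.495 to 5.64 ± 0.137 CPM, and was not called in KO (edgeR adjusted p = 0.413). The -1 kb call in WT ended without WT LT-HSC 1 (edgeR adjusted p = 0.0616). It also ended with the share of counts at gene ends as a covariate (0.282). The 2 kb region inside Myc (chr15:61986893-61987362) had 14.6 ± 0.821 and 13.8 ± 0.302 CPM and was not called in either genotype. The weak 6 kb region past the end of the gene was called higher in MPP in WT (0.72 ± 0.25) and in KO (0.64 ± 0.25, log2 fold change ± SE). The WT call ended without WT LT-HSC 2 (edgeR adjusted p = 0.0569) or WT MPP 3 (0.124), and the KO call without KO LT-HSC 1 or 2 or KO MPP 2 or 3, with edgeR adjusted p up to 0.153.

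In the blood enhancer window 16 members were called higher in MPP and 14 lower of 34 in WT (47.1% and 41.2%, against 34.6% and 35.2% of all regions), and 13 and 13 in KO (38.2% each, against 33.3% and 34.4%). The strongest of them changed in different directions. The 1663 kb region had 75.6, 72.0 and 68.8 CPM in WT LT-HSC compared with 48.5, 54.5 and 50.1 in WT MPP. The LT-HSC libraries were all higher, and the region fell by 0.50 ± 0.07 on the log2 scale (edgeR adjusted p = 6.93e-08). In KO it fell by 0.71 ± 0.07 (edgeR adjusted p = 7.81e-11).

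The 1680 kb region (chr15:63665463-63665902, intergenic) was open mainly in the stem cells. It had 19.3, 18.5 and 18.0 CPM in WT LT-HSC against 4.76, 4.44 and 4.73 in WT MPP. MPP libraries were 4.01-fold lower, with a log2 fold change of -2.00 ± 0.09 (edgeR adjusted p = 2.2e-18). The KO values nearly repeated this, with 19.5 ± 1.18 in LT-HSC and 4.67 ± 0.405 in MPP.

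The 1719 kb region (chr15:63704559-63705072, intergenic) did the reverse. It had 5.36, 5.03 and 5.50 CPM in WT LT-HSC, against 21.9, 21.6 and 22.1 in WT MPP. The groups are far apart, at 4.13-fold higher in MPP, a log2 fold change of 2.04 ± 0.10 (edgeR adjusted p = 1.65e-17). In KO it was 1.804 ± 0.10, and the difference between genotypes did not pass the interaction test (edgeR adjusted p = 0.740).

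Nearer to Myc than both, the 1673 kb region (chr15:63657993-63658666, intergenic) had 11.7, 12.5 and 10.7 CPM in WT LT-HSC compared with 18.7, 19.7 and 17.3 in WT MPP. Each MPP library was above each LT-HSC library, and the log2 fold change was 0.68 ± 0.09 in WT and 0.57 ± 0.09 in KO. The 1673 and 1680 kb regions, called in opposite directions, are 6.796 kb apart. The 1626 kb region (chr15:63611104-63611538) was called higher in MPP more weakly, by 0.41 ± 0.10 in WT. With the share of counts at gene ends as a covariate its call ended in WT (edgeR adjusted p = 0.271) and KO (0.491). The KO call also ended without KO LT-HSC 3 (edgeR adjusted p = 0.0853) or KO MPP 2 (0.0511). Neighbours called in opposite directions were found along the locus. Of 131 pairs of neighbouring tested members, 40 were called in opposite directions in WT and 51 in the same direction. The share of such pairs over all regions was not determined, so these counts do not set the locus apart.

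**Figure D3:**
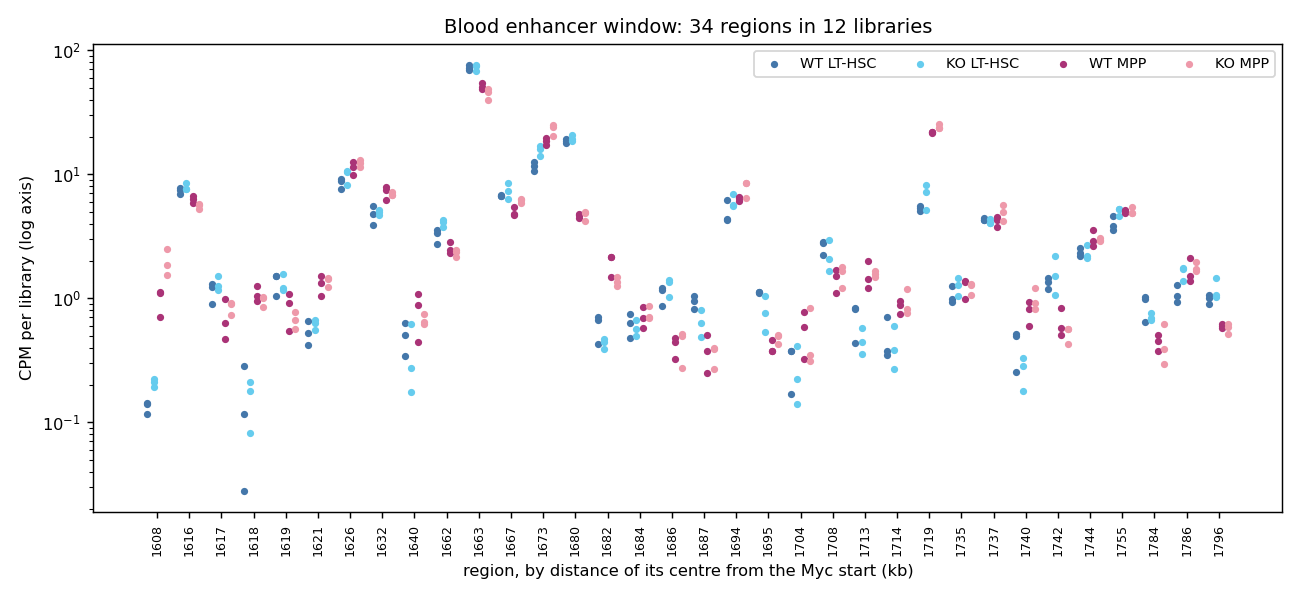
CPM of every library (vertical log axis) at the 34 regions of the blood enhancer window, ordered by distance from the Myc start in kb; colours mark the 4 groups. The 1663 kb region lies highest, the 1680 kb region is higher in all LT-HSC libraries, and the 1719 kb region is higher in all MPP libraries.

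Within and around Pvt1 the step was also in both directions, with 17 members called higher and 10 lower of 34 in WT (against 34.6% and 35.2% of all regions), and 18 and 10 in KO (against 33.3% and 34.4%). The 3 strongest regions there, all inside Pvt1, were lower in MPP. At 121 kb (chr15:62106541-62106950) CPM was 12.7, 14.9 and 13.3 in WT LT-HSC, against 7.99, 8.61 and 8.99 in WT MPP. The groups do not overlap, and the log2 fold change was -0.68 ± 0.09 (edgeR adjusted p = 5.59e-08). The regions at 143 and 221 kb were lower by 2.32-fold and 2.47-fold.

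The largest rise in the locus in WT was also in Pvt1. The 193 kb region (chr15:62177684-62178126) had 0.545, 0.505 and 0.608 CPM in WT LT-HSC compared with 6.54, 7.31 and 4.97 in WT MPP. All MPP libraries lay far above all LT-HSC libraries, 11.4-fold higher (log2 fold change 3.51 ± 0.19, edgeR adjusted p = 1.14e-16), and it rose 12.7-fold in KO. Its neighbour at 196 kb rose 3.09-fold. In the opposite direction, the 154 kb region (chr15:62139050-62139649) went from 3.17 ± 0.427 to 0.419 ± 0.116 CPM, with a log2 fold change of -2.91 ± 0.21 in WT and -3.47 ± 0.22 in KO. The 94 kb region was 3.49-fold lower and the 14 kb region, between Myc and Pvt1, 7.06-fold higher in WT MPP.

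In the first desert 11 of 37 tested members were called higher in MPP and 20 lower in WT (29.7% and 54.1%, against 34.6% and 35.2% of all regions), and 11 and 19 in KO (against 33.3% and 34.4%). Among those named by the rule, the 302 kb region fell 6.19-fold in WT, the 344 kb region 3.51-fold and the 407 kb region 1.99-fold. The 416 and 839 kb regions rose 6.65-fold and 4.47-fold. In the second desert 2 of 7 were called higher and 4 lower in WT, and 2 and 3 in KO. There the 1355 kb region was 4.31-fold lower, and the neighbouring 1512 and 1513 kb regions were 4.49-fold and 1.599-fold higher. The 1513 kb call ended with the share of counts at gene ends as a covariate, in WT (edgeR adjusted p = 0.307) and KO (0.139). Upstream of Myc, the -57 kb region (chr15:61928014-61928459) went from 5.30 ± 0.460 to 0.646 ± 0.156 CPM, 7.98-fold lower in WT MPP, the -10 kb region was 1.45-fold lower and the -72 kb region 2.50-fold higher. The -10 kb call in WT (edgeR adjusted p = 0.0449) ended in 9 of 23 alternatives, among them DESeq2 and the compared groups alone. The -72 kb region had 7 to 12 counts a library in WT LT-HSC. Its WT call ended with the share of counts at gene ends as a covariate.

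The T cell enhancer window was weakly accessible. The 1209 kb region (chr15:63193840-63194345) had 1.38, 1.24 and 0.955 CPM in WT LT-HSC, from 33 to 48 counts a library, and 0.125, 0.188 and 0.0676 in WT MPP, from 2 to 9 counts. The stem cell libraries were all higher, with a log2 fold change of -3.10 ± 0.37 (edgeR adjusted p = 1.03e-08) in WT and -3.02 ± 0.36 in KO. The 1285 kb region had 2.11 ± 0.692 CPM in WT LT-HSC and 1.46 ± 0.217 in WT MPP, where 1 LT-HSC library lies within the MPP range, and its log2 fold change was -0.52 in WT (edgeR adjusted p = 0.0300) and -0.51 in KO (edgeR adjusted p = 0.0582). The WT call ended in 8 of 23 alternatives, among them without WT LT-HSC 1 (-0.28, edgeR adjusted p = 0.287) and without WT LT-HSC 3, WT MPP 2 or WT MPP 3, and the KO estimate passed in 6. The window holds no region above 2.75 CPM in any WT LT-HSC library.

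At the far end, over the gasdermin C gene cluster, 7 of 10 tested members were called higher in MPP in WT and 0 lower (against 34.6% and 35.2% of all regions), and 6 and 0 in KO (against 33.3% and 34.4%). Gasdermins are pore-forming proteins. The regions in Gsdmc3 at 1877 kb and in the pseudogene Gsdmcl2 at 1903 kb rose 1.83-fold and 2.19-fold in WT. With the share of counts at gene ends as a covariate both calls ended, at 1903 kb with a log2 fold change of 0.30 (edgeR adjusted p = 0.561) in place of 1.13, and at 1877 kb with an edgeR adjusted p of 0.0673. The strongest member there, the 1910 kb region in Gsdmc4 (chr15:63895557-63895996), had 5.78 ± 0.436 CPM in WT LT-HSC and 5.45 ± 0.277 in WT MPP and was not called.

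**Figure D4:**
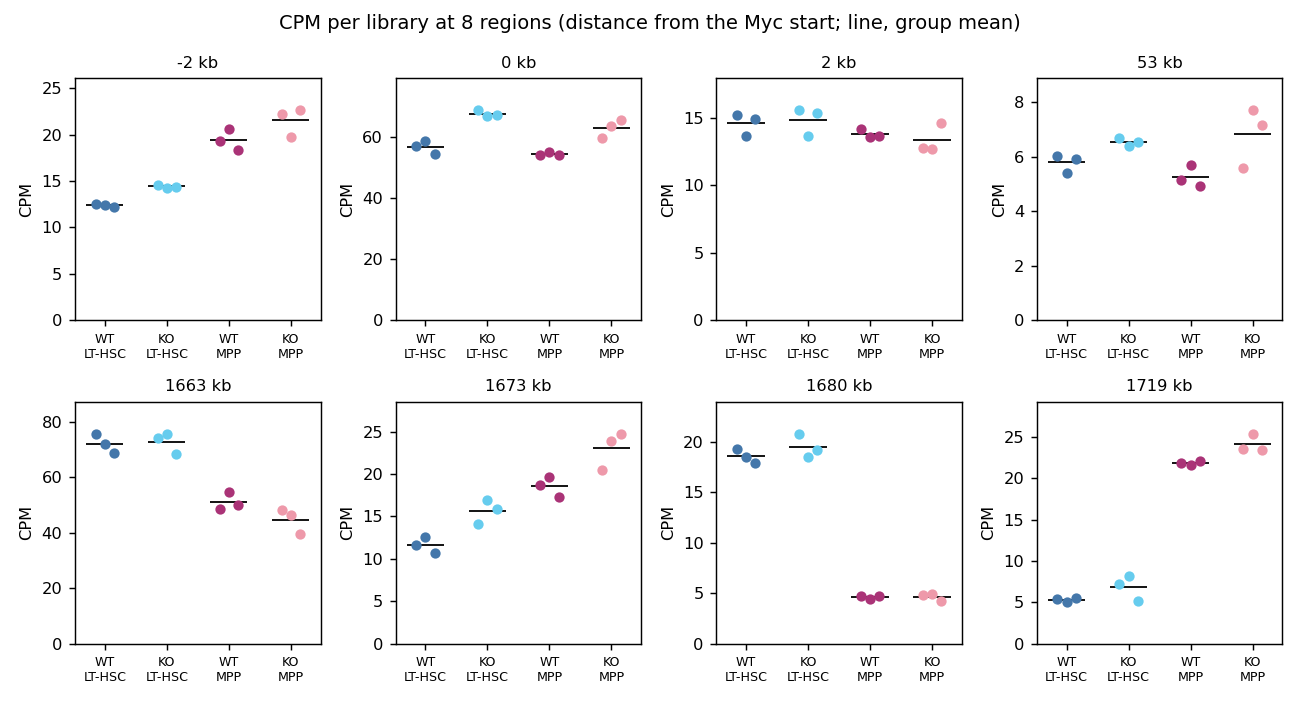
CPM of every library (dots; vertical axes start at 0) at 8 regions named by distance from the Myc start, with the 4 groups along the horizontal axis and a line at each group's mean. At 0 kb the KO dots lie above the WT dots in both populations, at 1680 and 1719 kb the populations separate in opposite directions, and at 2 kb the groups overlap.

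Few members were called between genotypes. In LT-HSC, 4 of 132 were called higher in KO and 0 lower, against 4.74% of all regions called, 3.27% higher and 1.47% lower. At an unadjusted p under 0.05 there were 29 of 132, against 20% of all regions, and DESeq2 called 3 higher and 0 lower. Higher calls fell to 2 without WT LT-HSC 1, 2 or 3 or KO LT-HSC 1, and to 1 without KO LT-HSC 2. Over all regions higher calls fell too, from 6093 to between 2571 and 4595 in these fits. In MPP, 6 were called higher and 1 lower, against 8.71% of all regions, 5.12% higher and 3.59% lower, and 23 had an unadjusted p under 0.05, against 24.1%. Higher calls there fell to 3 without WT MPP 1 and to 1 without KO MPP 2 or KO MPP 3. Over all regions they fell from 9542 to 6493, 4262 and 4198. Among the members, lower calls in MPP ran from 0 to 4 with 1 library left out. With the replicate number as a block, lower calls became 1 in LT-HSC and 4 in MPP, and with total-count scaling the calls were 2 higher and 1 lower in LT-HSC and 4 higher and 3 lower in MPP. The members' share of calls was 3.03% in LT-HSC and 5.30% in MPP. In LT-HSC all KO libraries lay above all WT libraries at 12 members and below them at 20, against 13.4% and 10.8% of all regions (24.2% without overlap). In MPP these were 12 and 13 members, against 14.4% and 13.6% (28% without overlap).

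The region over the Myc start was called higher in KO in both populations. In LT-HSC it had 57.0, 58.9 and 54.6 CPM in WT, against 69.0, 67.1 and 67.3 in KO. All KO libraries lay above all WT libraries, by a log2 fold change of 0.25 ± 0.06 (edgeR adjusted p = 0.00687), a 1.19-fold difference. In MPP it had 54.3, 55.3 and 54.3 CPM in WT, against 59.8, 63.7 and 65.5 in KO. Again the groups do not overlap, with a log2 fold change of 0.21 ± 0.06 (edgeR adjusted p = 0.0167). The effect did not differ detectably between the populations (interaction -0.05 ± 0.08, edgeR adjusted p = 0.934).

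Gene ends as a class moved in the same direction. The share of a library's counts in regions within 1 kb of a protein-coding gene's end was 37.82 to 38.85% in WT LT-HSC and 39.16 to 39.6% in KO LT-HSC, and 39.15 to 41% in WT MPP and 40.96 to 41.42% in KO MPP. Of gene-end regions 8.21% were called higher in KO LT-HSC and 11.4% in KO MPP, and their median log2 fold change was 0.06 in both. The fold change at the Myc start exceeded that of 84.2% of gene-end regions in LT-HSC and 75.1% in MPP. When that share entered the fit as a covariate, the call ended in LT-HSC (log2 fold change 0.24, edgeR adjusted p = 0.0578) and MPP (0.19, edgeR adjusted p = 0.0958). The estimates without it were 0.25 and 0.21. Because the share itself differed between WT and KO, this fit cannot separate it from genotype. Over all regions, calls higher in KO fell from 6093 to 1383 in LT-HSC and from 9542 to 3300 in MPP. With a loess offset the call at the Myc start also ended (0.15 in both, edgeR adjusted p = 0.0978 and 0.0680). In MPP it further ended without KO MPP 2 (edgeR adjusted p = 0.0782) or KO MPP 3 (edgeR adjusted p = 0.103).

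The other regions at Myc were not called between genotypes. The -2 kb region had 12.4 ± 0.173 CPM in WT and 14.4 ± 0.168 in KO LT-HSC, without overlap, at an edgeR adjusted p of 0.116. The 2 kb region in the gene body had 14.6 ± 0.821 and 14.9 ± 1.05 CPM. Summed over the 5 regions at Myc, CPM was 93.7, 92.7 and 89.9 in WT LT-HSC, against 107, 102 and 104 in KO LT-HSC, and in MPP 95.2, 96.7 and 95.1 in WT against 102, 105 and 111 in KO. The KO sums lay above the WT sums in both populations. They include the 0 kb region, itself called higher in KO, so they are not separate from that result. In WT LT-HSC the 0 kb region held 13.5% of the members' summed CPM, and all 5 regions 21.8%. In KO LT-HSC these were 15.2% and 23.5%.

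**Figure D5:**
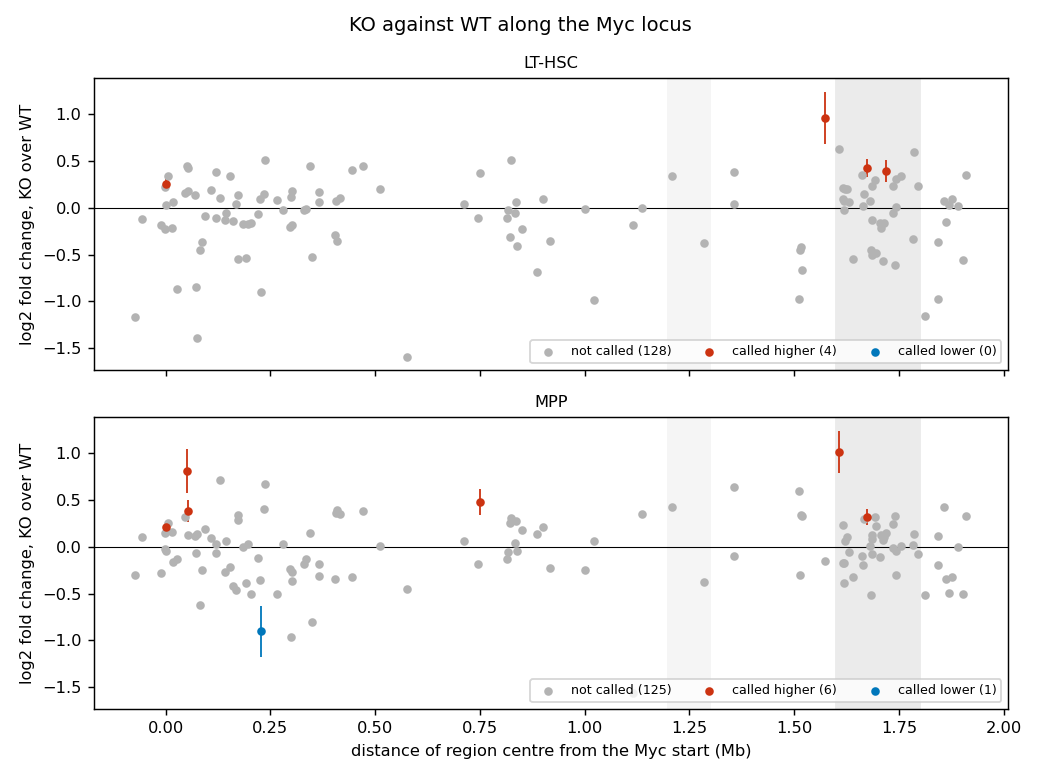
Log2 fold change of KO over WT for the 132 tested regions (vertical axis) against distance from the Myc start in Mb, LT-HSC above and MPP below; called regions are red (higher in KO) or blue (lower) with bars of 1 SE, the others grey, and the enhancer windows are shaded. There are 4 red points in LT-HSC, and 6 red and 1 blue in MPP.

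In the blood enhancer window the 1673 kb region was called higher in KO in both populations. It had 11.7, 12.5 and 10.7 CPM in WT LT-HSC compared with 14.1, 16.9 and 15.9 in KO LT-HSC. The groups do not overlap, and the log2 fold change was 0.42 ± 0.09 (edgeR adjusted p = 0.00641). In MPP it had 18.7, 19.7 and 17.3 CPM in WT, against 20.4, 23.9 and 24.8 in KO, a log2 fold change of 0.32 ± 0.08 (edgeR adjusted p = 0.0176). These also do not overlap, and KO LT-HSC lay between WT LT-HSC and WT MPP. Away from gene ends 2.52% of regions were called higher in KO LT-HSC and 4.17% in KO MPP. In LT-HSC the call ended without KO LT-HSC 2 (edgeR adjusted p = 0.0629) and with the gene-end covariate (0.0824). In MPP it ended with that covariate (edgeR adjusted p = 0.152) and without WT MPP 3 (0.0654), KO MPP 2 (0.0961) or KO MPP 3 (0.118).

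The strongest element of the window, at 1663 kb, had 72.1 ± 3.39 CPM in WT LT-HSC and 72.8 ± 3.80 in KO LT-HSC, a log2 fold change of 0.01 ± 0.07 (edgeR adjusted p = 0.932). In MPP it had 48.5, 54.5 and 50.1 CPM in WT, against 48.3, 46.5 and 39.5 in KO. The KO libraries were lower without overlap, at -0.19 ± 0.07 and an edgeR adjusted p of 0.0671, so it was not called. It was called lower with total-count scaling (edgeR adjusted p = 0.0204), a loess offset (0.00685), a filter at 1 CPM (0.0430), the replicate block (0.0304) and without KO MPP 1 (0.0346). The 1680 kb region was alike in both genotypes, with log2 fold changes of 0.07 ± 0.08 in LT-HSC and 0.01 ± 0.11 in MPP.

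The 1719 kb region had 5.36, 5.03 and 5.50 CPM in WT LT-HSC, against 7.18, 8.24 and 5.12 in KO LT-HSC. KO LT-HSC 3 lies within the WT range, and the call at 0.39 ± 0.12 (edgeR adjusted p = 0.0457) held in 8 of 22 alternatives and ended without any single LT-HSC library except KO LT-HSC 3, and without WT MPP 1, KO MPP 1 or KO MPP 2, reaching an edgeR adjusted p of 0.311 without KO LT-HSC 2. Less accessible still was the 1608 kb region (chr15:63592822-63593409), with 0.701, 1.10 and 1.12 CPM in WT MPP compared with 1.87, 1.53 and 2.48 in KO MPP, from 28 to 92 counts a library. KO MPP libraries were all higher, by 2.01-fold (log2 fold change 1.01 ± 0.22, edgeR adjusted p = 0.00451). This call ended without KO MPP 3 (edgeR adjusted p = 0.0802) and held in 20 of the 21 alternatives that gave the region an adjusted p.

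Around the start of Pvt1, a pair of neighbouring regions was called higher in KO MPP. The 53 kb region (chr15:62037733-62038223), over the start of Pvt1, had 5.16, 5.71 and 4.94 CPM in WT MPP, against 5.57, 7.73 and 7.17 in KO MPP. The lowest KO library lies within the WT range, and the log2 fold change was 0.38 ± 0.11 (edgeR adjusted p = 0.0325). The 52 kb region (chr15:62036921-62037458), 528 bp outside Pvt1, had 0.651, 0.667 and 0.913 CPM in WT MPP compared with 1.21, 1.51 and 1.08 in KO MPP, without overlap, at 0.80 ± 0.23 (edgeR adjusted p = 0.0288). Without KO MPP 2 these adjusted p were 0.226 and 0.189 (edgeR). The 53 kb call ended in 8 of 22 alternatives, among them total-count scaling and a loess offset. It also ended without WT MPP 1, WT MPP 3 or KO MPP 3. The 52 kb call ended in 6 of 22, among them DESeq2 and without WT MPP 1 or WT MPP 2. Both ended with the gene-end covariate.

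The lower call lies within Pvt1. The 227 kb region (chr15:62212181-62212720) had 0.902, 1.19 and 0.778 CPM in WT MPP, against 0.468, 0.617 and 0.458 in KO MPP. KO libraries were all lower, at -0.90 ± 0.27 (edgeR adjusted p = 0.0342), and in LT-HSC the estimate was the same at -0.90 ± 0.27 with an edgeR adjusted p of 0.0516. In MPP the call ended without any single MPP library except WT MPP 3, with edgeR adjusted p up to 0.187.

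In the deserts, the 750 kb region was called higher in KO MPP, from 2.37 ± 0.120 to 3.24 ± 0.452 CPM (0.47 ± 0.14, edgeR adjusted p = 0.0342), and in LT-HSC it was 0.37 ± 0.13 (edgeR adjusted p = 0.110). The MPP call ended in 8 of 22 alternatives, among them without WT MPP 1 (edgeR adjusted p = 0.0885), WT MPP 2 (0.108), KO MPP 2 (0.237) or KO MPP 3 (0.0707). The 1574 kb region was called higher in KO LT-HSC, from 0.619 ± 0.0511 to 1.221 ± 0.240 CPM (0.95 ± 0.28, edgeR adjusted p = 0.0419). The libraries do not overlap, and the call ended when any 1 of the 6 LT-HSC libraries was left out, with edgeR adjusted p from 0.0528 to 0.157. In MPP it was -0.15 ± 0.35.

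No member's genotype difference was called different between LT-HSC and MPP. The edgeR interaction test gave 0 of 132, beside 0.00805% of all regions, with 9 members at an unadjusted p under 0.05, against 7.56% of all regions. DESeq2 gave 0 among the 24 members that had an adjusted p. The lowest p among the named members was at 1512 kb, where KO was below WT in LT-HSC (0.144 ± 0.0477 against 0.295 ± 0.0934 CPM) and above it in MPP (2.02 ± 0.218 against 1.31 ± 0.350). The interaction there was 1.56 ± 0.51 (edgeR adjusted p = 0.480). The 225 kb region in Pvt1 followed with -0.45 ± 0.17 (edgeR adjusted p = 0.542).

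The regions most like the Myc start over the 12 libraries were looked for by a fixed measure. By the root mean square difference of centred log2 CPM, the nearest of 24480 gene-end regions were those at Eif3k and Map4k1 (0.0339), Yif1a (0.0405), Pop5 (0.0410), Elp4 and Immp1l (0.0412) and Ubap2 (0.0449), against a median of 0.285 over all gene-end regions. The nearest of so many are close by construction. Among members, the nearest were the 1910 kb (0.0966) and 53 kb (0.119) regions, against a median of 0.635. The 2 kb (0.143), 1737 kb (0.164) and 1667 kb (0.176) regions followed. Of these 5, the 1737 and 1667 kb regions lie in the blood enhancer window. Its stronger regions at 1663, 1680 and 1719 kb were not among the 5.

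The genes that work with Myc were read at their strongest gene-end region. The shares given beside these and the later lists cover all gene-end regions, weak ones included. Shares among gene-end regions of like CPM were not determined, so the 2 are not like for like. Of 12 genes of the MAX network, Myc's dimerization partners, rivals and relatives, 2 were called higher in KO LT-HSC and 0 lower, with a median log2 fold change of 0.07, where 8.21% of gene-end regions were called higher and 0.968% lower. Both were called in MPP too: Mnt, a Max-binding repressor, went from 68.3 ± 4.41 to 82.7 ± 1.71 CPM in LT-HSC (0.28 ± 0.06, edgeR adjusted p = 0.00522), and Mlx, a Max-like partner, rose by 0.31 ± 0.08. In KO MPP 5 of 12 were called higher (these and Mycn, Mxd3 and Mga) and 0 lower, where 11.4% of gene-end regions were called higher. Mxd3, a Max-binding repressor, went from 39.2 ± 0.119 to 50.2 ± 2.50 CPM (0.36 ± 0.06, edgeR adjusted p = 0.000734). From LT-HSC to MPP in WT, Mxd1, Mxd3 and Mxi1 were called higher and Mycn, Mga and Mlxipl lower. Max itself was not called in any comparison, at 68.6 ± 4.38 CPM in WT LT-HSC.

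Of 14 Myc turnover and cofactor genes 13 had such a region. Trrap, a scaffold of histone acetyltransferase complexes, was the 1 gene called in KO, higher in LT-HSC (0.30 ± 0.07, edgeR adjusted p = 0.00782) and MPP (0.43 ± 0.07, edgeR adjusted p = 0.00016). In the step 9 were called higher and 2 lower in WT, where 32.6% of gene-end regions were called higher and 35.5% lower. In KO these were 8 and 1, against 31.4% and 33.6%. Pim1, a kinase, rose by 1.03 ± 0.07 and Smarca4, a chromatin remodelling ATPase, by 0.92 ± 0.08 in WT. Of 14 Myc targets of growth and metabolism, 3 were called higher in KO LT-HSC (Eif4e, Cdk4 and Fbl) and 0 lower, and 0 in KO MPP. In the step 11 were called higher and 1 lower in WT, with Npm1 at 0.56 ± 0.06 and Odc1 at 0.62 ± 0.06, and 9 and 1 in KO, against the same shares. The gene called lower was Ccnd2, a cyclin (-0.42 ± 0.07 in WT).

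In the marker lists, calls between genotypes were mostly in MPP. Of all gene-end regions 8.21% were called higher in KO LT-HSC and 11.4% in KO MPP. Of LT-HSC markers 0 of 8 were called in KO LT-HSC and 1, Slamf1, higher in KO MPP. Of 5 MPP markers with a region, Mpo, a granule enzyme of myeloid cells, was called higher in both populations, from 1.89 ± 0.320 to 3.01 ± 0.172 CPM in LT-HSC (1.59-fold) and from 11.98 ± 0.628 to 14.8 ± 1.51 CPM in MPP. Flt3 (-0.30 ± 0.06) and Satb1 (-0.29 ± 0.08) were called lower in KO MPP, where 2.4% of gene-end regions were. In KO MPP, Itga2b and Pf4, of 3 erythroid and megakaryocyte markers with a region, were called higher, and the 3 summed to 47.1 to 52 CPM in WT MPP and 54.5 to 63.9 in KO MPP. T cell, B cell and mature myeloid markers had 0 calls between genotypes by edgeR. How far these markers' cells contribute to the genotype differences at the locus was not tested.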

How the data were processed

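The data are 12 ATAC-seq libraries, and the deposited table holds whole-number read counts per region that the authors made over 1 union set of 188262 regions; per the submitters' processing notes, the tools included MACS2 2.1.1, DESeq2 1.22.1, Bowtie2, cutadapt and featureCounts, on GRCm38. Reads were 75 nt, per the labels. Settings for duplicates, read shifting and peak calling are not stated in the sources used. A union called over all groups contains a region when any group opens it, so closed regions have low counts.

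All regions were fitted together with edgeR 4.0.16 (R 4.3.3; quasi-likelihood F test, 4 group means, TMM scaling, filterByExpr, 2-sided, Benjamini-Hochberg over 186373 regions, threshold 0.05), and the fit was tested on simulated data. The biological coefficient of variation was 8.18%. Errors of log2 fold changes are standard errors from the F statistic. CPM are counts scaled by TMM library size. P-values measure the spread between libraries; the labels state individual mice for LT-HSC. A gene-end region has a protein-coding gene's start or end inside it or at most 1 kb away in the RefSeq GRCm38.p6 table, which gives no strand here, so a gene end can be the far end. Distances run from the lower end of Myc (chr15:61985341-61990361), and Pvt1 is chr15:62037986-62260215.

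Members and lists were chosen with earlier results of these data known. Named regions were the 5 at Myc, the 3 strongest of each other stretch (5 in the blood enhancer window) and, per comparison, up to 6 called members with the lowest p in each direction; likeness used the 5 nearest regions. Named genes come from lists of the MAX network, Myc turnover and cofactors, Myc targets, and markers of LT-HSC, MPP, T cells, B cells, erythroid and megakaryocyte cells and mature myeloid cells.

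Alternatives were an adjusted p under 0.01, RLE, total-count and loess scaling, 2 other filters, DESeq2 1.42.0, the compared groups alone, a replicate block, the gene-end share as a covariate and each library left out. LT-HSC and MPP libraries of the same number and genotype deviated together (6 pairs, r = 0.134 to 0.258), against -0.183 to -0.0142 for other numbers. Deviations were taken from the mean of the 3 libraries of a group. A positive r for the same number therefore makes the others negative in part by construction. Across genotypes the same number gave r = -0.0713 to 0.0934, and different numbers gave -0.148 to 0.160. No label states a pairing, and these values do not settle it. A block within genotype was added after seeing the data. Sequences and motifs were not analysed here.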

Additional observations from a re-analysis of the deposited data

How the results depend on the processing

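The step from LT-HSC to MPP kept its counts within 1.5 times in the alternatives run, except that, with the share of counts at gene ends as a covariate, members called lower in MPP fell to 30 in WT and 29 in KO; with 1 library left out they ran from 44 to 53 in WT and from 41 to 49 in KO. Of the named members, 24 of 35 called in WT and 26 of 33 called in KO were called in every alternative. The genotype calls were less stable: 0 of 4 in LT-HSC and 0 of 7 in MPP were called in every alternative. Members called higher in KO LT-HSC fell to 2 at an adjusted p under 0.01, with total-count scaling, with a loess offset and with a filter of at least 1 CPM in 3 libraries, and to 0 with the gene-end covariate. Over all regions these calls fell from 6093 to 1907, 3214, 3506, 4201 and 1383, in that order. Members called lower in KO LT-HSC rose to 1 with total-count scaling, the 1 CPM filter and the replicate block. In MPP, members called higher fell to 1 at an adjusted p under 0.01, to 3 with DESeq2 and to 1 with the gene-end covariate. Over all regions these calls fell from 9542 to 3484, 7604 and 3300, in that order. Members called lower in KO MPP became 0 at an adjusted p under 0.01, with DESeq2 and with the gene-end covariate, 3 with total-count scaling, the loess offset and the 1 CPM filter, and 4 with the replicate block. With 1 library left out, higher calls ran from 1 to 4 in LT-HSC and from 1 to 8 in MPP, and lower calls from 0 to 1 and from 0 to 4. The gene-end share itself differs between the groups. With it as a covariate, calls over all regions also fell in the genotype and step comparisons. The causes were not tested. The interaction gave 0 calls in every alternative run.

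With the replicate block the step gave 56 higher and 53 lower in WT and 53 and 47 in KO. Pairing numbers within a genotype gave 57 and 53, and 54 and 49; that fit cannot test genotype within a population. No named call was reversed in any alternative. Summed CPM under total-count scaling stayed within 1 SD in 33 of 36 cases; at Myc in WT LT-HSC the sum moved from 92.1 to 94.6 CPM.

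The median count a member was 21.5 to 52, and the size of genotype difference detectable at that depth was not determined. DESeq2 gave an adjusted p for 52 members in LT-HSC, 69 in MPP and 24 in the interaction. The motif counts planned for a genome of this build were not run.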
